A study of Homo sapiens with 18 samples.

Results

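Described here is the transcript response to olaparib in T47D cells labelled PARP1 KO, read from 6 of the 18 samples of the series: the 3 olaparib and the 3 DMSO libraries of that genotype, chosen by their labels. The study sequenced RNA from this estrogen receptor-positive breast cancer line under both genotypes with a PARP inhibitor or the vehicle. PARP1 KO cells received 10 uM olaparib or DMSO alone, in both cases for 48 h. For comparison, values are also given from WT cells with 10 uM olaparib or DMSO for 48 h and from PARP1 KO cells with 10 uM niraparib for 48 h, each group again with 3 libraries. PARP1 binds broken DNA and builds chains of ADP-ribose on itself and on nearby proteins, which draws repair factors to the break. Olaparib occupies the NAD+ pocket of PARP1 and of the related PARP2 and holds the enzyme on DNA. Without PARP1 the main target of the drug is missing, while PARP2 and the more distant members of the family are still encoded.

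PARP1 transcript was low in every PARP1 KO sample. Its level, in counts scaled to library size and composition (CPM), was 24.6, 27.1 and 25.6 CPM with olaparib and 24.5, 23.9 and 24.7 CPM with DMSO. The groups overlapped, and the change with olaparib was 0.08 as a log2 fold change (standard error 0.072, adjusted p = 0.60, edgeR). With all 18 libraries scaled together, which shifts these values slightly, the mean over the 6 libraries, 25.4 CPM, is 7.21% of the mean over the WT olaparib and DMSO libraries, 353 CPM. Protein was not measured in these libraries. The knockout rests on 1 line: the labels name it T47D JL and the WT cells T47D AAV without saying what these letters stand for, and the transcriptomics text of the paper names no knockout line, so a difference between the genotypes cannot be told apart from any other difference between these lines. Nothing says that replicates were grown apart beyond separate dishes, so p-values measure the spread between these samples, which may be technical.

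Markers of luminal breast epithelium were present throughout: all 12 of 12 reached a mean of 1 CPM over the 6 libraries, and KRT19 was the most abundant per kilobase of exon. Summed over the 12 markers, the level was 14707, 15322 and 15712 CPM with olaparib and 17622, 17076 and 16954 CPM with DMSO. Each olaparib library thus lay below each DMSO library, and 1 marker had an adjusted p below 0.05 upward and 5 downward. Of the 6 basal markers KRT14 had no counts, and ACTA2 was the most abundant per kilobase. Basal markers summed to 57.4, 56.0 and 50.6 CPM with olaparib and 49.6, 45.3 and 50.5 CPM with DMSO. Among 6 fibroblast markers only COL1A1 reached a mean of 1 CPM, at 105 CPM. Fibroblast markers summed to 100.6, 115.4 and 124.7 CPM with olaparib and 107.1, 98.9 and 89.1 CPM with DMSO. The 4 endothelial markers summed to at most 0.249 CPM in a library, and the 5 leukocyte markers to at most 2.25 CPM. In bulk RNA, fewer cells of a type and less RNA per cell cannot be told apart.

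Some libraries stand apart from their group. On the first component of 13494 genes over the 9 PARP1 KO libraries (34.7% of the variance), olaparib replicates 1, 2 and 3 lay at -0.10, 12.6 and 21.1 and the DMSO replicates at -0.88, -7.33 and -19.1. On the second component (27%), the olaparib replicates lay at 23.4, 9.42 and 1.63 and the DMSO replicates at -6.34, -3.23 and 2.69. Olaparib replicates 1 and 3 are at opposite edges of their group on both components, and DMSO replicate 3 is at an edge of its own. The chi-square per gene, a measure of how far 2 libraries differ, is 16.6 between olaparib replicates 1 and 3. It is 9.54 between olaparib replicates 1 and 2 and 7.53 between 2 and 3. Between DMSO replicates 1 and 3 it is 9.68, against 3.01 for 1 and 2 and 5.36 for 2 and 3. Niraparib replicate 3 also stands apart, at 12.6 and -17.8 on these components, against -8.07 and -3.85 for replicate 1 and -10.9 and -5.90 for replicate 2. Of the genes called higher below, olaparib replicate 1 held the highest olaparib value in 58, replicate 2 in 14 and replicate 3 in 31, and DMSO replicate 3 held the lowest DMSO value in 50, against 25 and 28 for replicates 1 and 2. Of the genes called lower, olaparib replicate 1 was the lowest of its group in 42. Mitochondrially encoded genes took 4.60%, 4.69% and 5.68% of the counts with olaparib and 4.55%, 4.71% and 5.02% with DMSO. For these reasons, fits with a library left out are quoted beside results that they change most.

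Olaparib changed a small set of genes in cells with little PARP1 RNA. Called means an adjusted p under 0.05 and a change of more than 1.5-fold. Of 22037 genes tested, 177 were called (0.803%), 103 higher (0.467%) and 74 lower (0.336%). By adjusted p alone, 975 genes were higher (4.42%) and 852 lower (3.87%), so most differences were smaller than 1.5-fold, and 55 of the 177 exceeded 2-fold. Counts of list members given below are to be read against these shares. Over all genes tested the median log2 fold change was 0.01. Protein-coding genes made up 74.8% of those called higher and 48.6% of those called lower, against 66.3% of all tested, while long noncoding RNAs made up 14.6%, 41.9% and 19.5% in the same order. Samples of the groups did not overlap in 102 of the 103 and 74 of the 74, against 25.9% of all genes tested. Groups apart are thus nearly given for a called gene, and the rule for genes named by size required it. For such genes it is a description and no further support. The genes called higher had a median level of 4.43 CPM and those called lower 2.15 CPM, with 20 and 18 of them under 1 CPM.

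**Figure D1:**
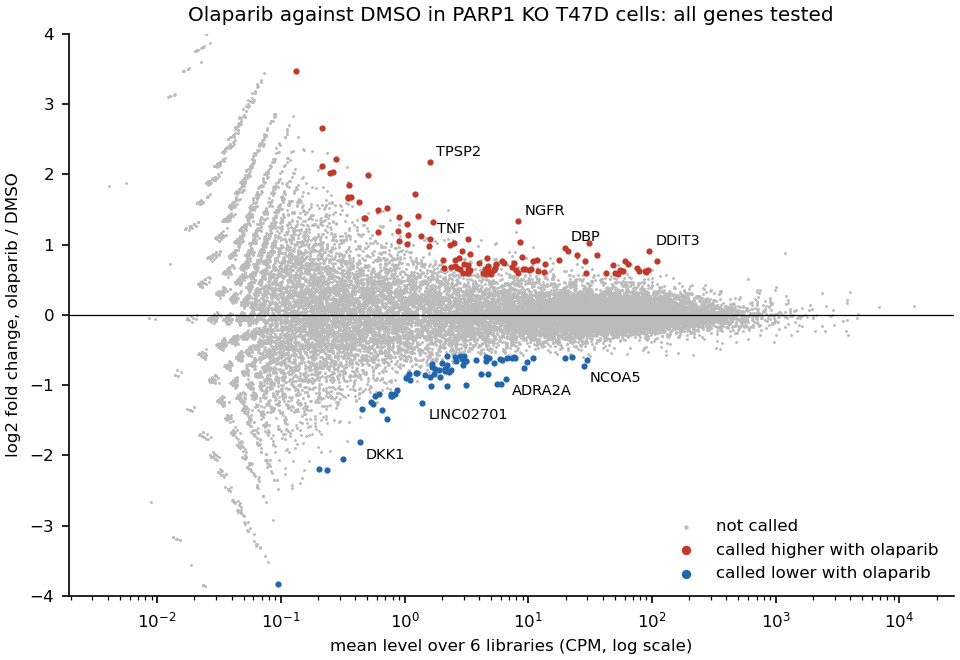
Each point is a gene tested in olaparib against DMSO in PARP1 KO cells, with its mean CPM over the 6 libraries on a log scale (x) and its log2 fold change (y); red and blue mark genes called higher and lower, and 74 genes, 1 of them called, lie beyond the y axis. Calls above 10 CPM are few and mostly higher.

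In the plot of all genes, the points fan out to the left, where counts are few, and called genes there need a large change. Leaving out 1 library gave from 100 to 195 called genes, with DMSO replicate 2 and olaparib replicate 3 left out, and 107 without DMSO replicate 3, 113 without olaparib replicate 2. Of the 177, 83 were also called in the fit with 100 calls. In each of the 6 fits with a library left out, 32 of the genes called higher and 13 of those called lower were called again.

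Genes of the circadian clock were higher with olaparib. All 19 clock genes measured had a positive log2 fold change, with a median of 0.29 against 0.01 over all genes tested; 5 were called, all higher, and 11 had an adjusted p below 0.05, all higher. DBP, CIART, NR1D1 and PER1 were among those called. In the molecular clock, CLOCK and BMAL1 switch on PER, CRY and REV-ERB genes through E-boxes, and the products of those genes feed back to shut the activators off. Without olaparib replicate 1, 3 of the 19 were called, 9 had an adjusted p below 0.05 and the median was 0.22; over all 6 fits with a library left out, 7 to 12 had an adjusted p below 0.05.

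DBP encodes a transcription factor whose transcript is a classical output of the clock. Its level was 31.3, 24.1 and 22.7 CPM with olaparib and 14.2, 13.8 and 12.3 CPM with DMSO, higher by 0.96 on the log2 scale (standard error 0.10, adjusted p = 2.1e-05). Each olaparib library was well above each DMSO library, with olaparib replicate 1 the highest. CIART, a repressor of CLOCK and BMAL1 activity, had 30.7, 24.7 and 27.2 CPM with olaparib and 15.2, 15.1 and 13.8 CPM with DMSO, an increase of 0.91 (standard error 0.086, adjusted p = 2.8e-06). NR1D1, which encodes the nuclear receptor REV-ERB alpha, had 38.6, 28 and 28.5 CPM with olaparib and 18.3, 17.9 and 16.5 CPM with DMSO, an increase of 0.85 (adjusted p = 9.5e-05). For both, the groups were apart and DMSO libraries lay close together.

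PER1, a core repressor of the clock, had 57.7, 49.2 and 45.9 CPM with olaparib and 34.4, 34.5 and 32.1 CPM with DMSO, and rose by 0.60 (adjusted p = 7.6e-04). Its groups were apart too, but it fell short of 1.5-fold without olaparib replicate 1 (0.50) and without DMSO replicate 3 (0.57). Smaller differences with an adjusted p below 0.05 were seen for the repressor CRY2 (0.46), the REV-ERB beta gene NR1D2 (0.30), the D-box factors TEF (0.28) and NFIL3 (0.29), the repressor BHLHE40 (0.24) and PER3 (0.20). Of these 6, CRY2 kept an adjusted p below 0.05 in 6 of 6 fits with a library left out, BHLHE40 in 5, NR1D2 in 3, TEF and PER3 in 2 each and NFIL3 in 1.

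Promoters of clock genes are shown because these members moved together. RefSeq windows on GRCh38.p14, from 250 bases before to 50 bases after the start, were matched by symbol for 18 of the 19 clock genes, and the E-box letters CACGTG (the same on both strands) were found in 5 of them (27.8%), against 9.55% of the 13114 genes tested with a window. Among genes called higher the share was 15.6% of 64 with a window and among genes called lower 13% of 46. This motif was added after the gene values were seen. Below are the 250 bases before the start of CIART (chr1:150282304-150282553, plus strand), PER1 (chr17:8152405-8152654, minus strand) and BHLHE40 (chr3:4979187-4979436, plus strand), 5′ to 3′, with CACGTG in capitals.
CIART: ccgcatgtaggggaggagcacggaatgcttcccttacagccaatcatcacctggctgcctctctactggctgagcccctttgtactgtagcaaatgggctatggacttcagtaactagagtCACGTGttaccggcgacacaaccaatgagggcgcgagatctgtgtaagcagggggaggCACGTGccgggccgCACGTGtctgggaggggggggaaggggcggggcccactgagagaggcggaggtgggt
PER1: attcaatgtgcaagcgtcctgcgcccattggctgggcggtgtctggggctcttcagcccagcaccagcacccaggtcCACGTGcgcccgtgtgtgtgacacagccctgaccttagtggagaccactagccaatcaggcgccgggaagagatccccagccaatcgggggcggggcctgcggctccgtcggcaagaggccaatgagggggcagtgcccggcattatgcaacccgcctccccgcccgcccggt
BHLHE40: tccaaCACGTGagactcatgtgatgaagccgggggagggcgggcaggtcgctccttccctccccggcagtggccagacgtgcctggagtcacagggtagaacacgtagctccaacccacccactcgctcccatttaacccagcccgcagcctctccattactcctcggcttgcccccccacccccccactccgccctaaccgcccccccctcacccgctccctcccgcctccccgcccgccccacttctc
In CIART the letters occur 3 times, beginning 129, 71 and 57 bases before the start; in PER1 they begin 173 bases before it and in BHLHE40 245 bases. These matches are descriptions of letters and not of bound sites.

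**Figure D2:**
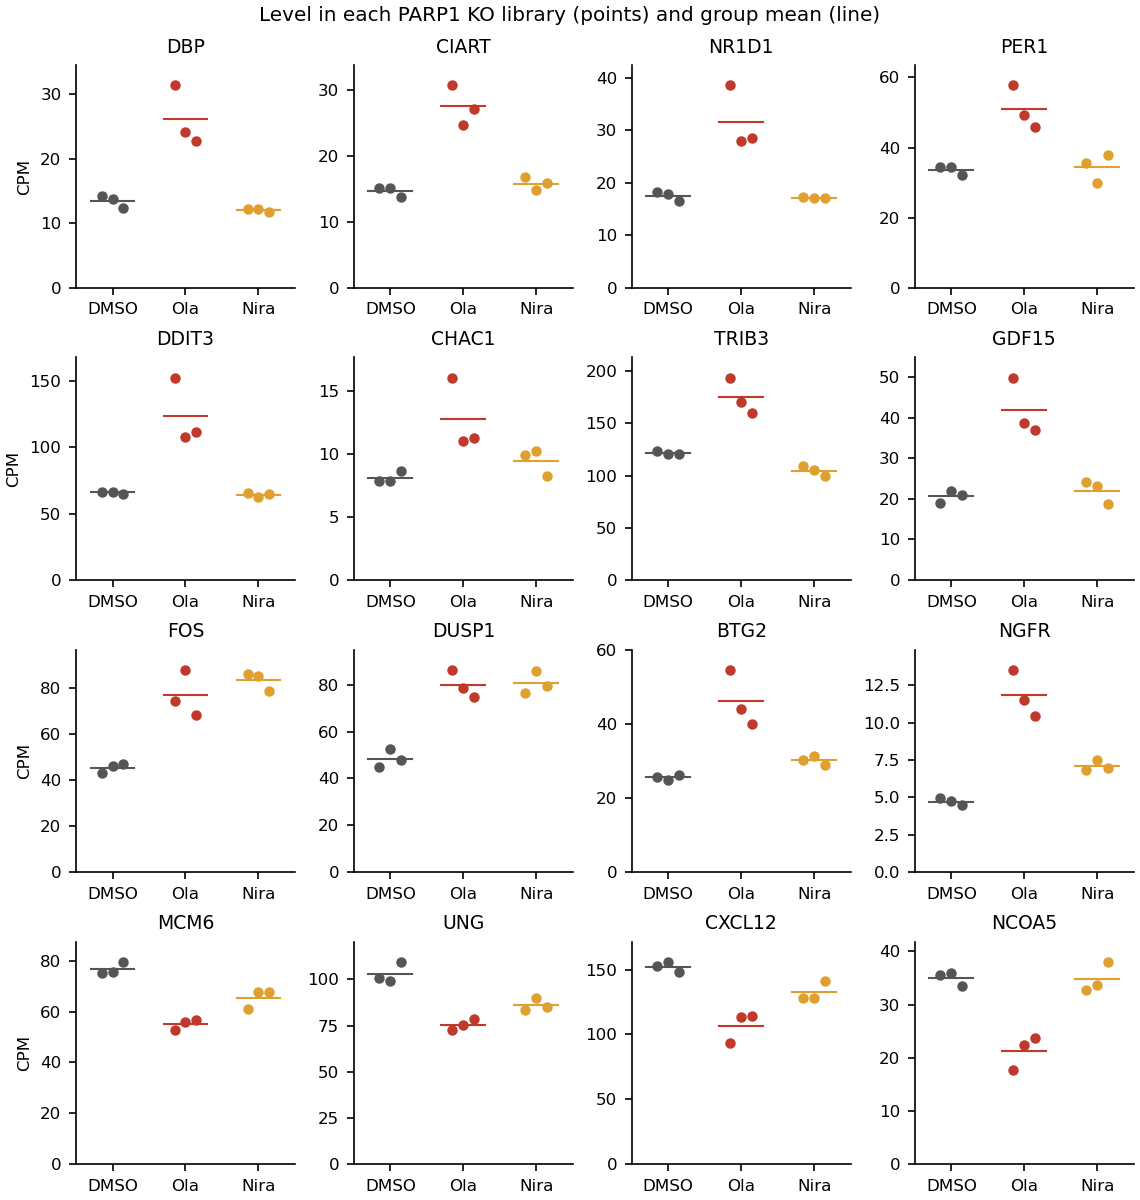
CPM of 16 genes in each PARP1 KO library (points, 3 per group) with DMSO, olaparib and niraparib, and the group mean (line). Clock and stress genes are highest with olaparib, FOS and DUSP1 are high with both drugs, and the last 4 genes are lowest with olaparib.

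The panels by library show the DMSO values of clock genes in a narrow band and the olaparib values apart from it, with replicate 1 highest in each of the 4 clock genes drawn. Niraparib values of DBP, CIART, NR1D1 and PER1 lie among or near the DMSO values.

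Genes of the ATF4 and unfolded protein response were mostly higher too. They lower protein synthesis load and restore amino acids when the endoplasmic reticulum or nutrient supply is stressed. Of 25 measured, 22 were higher, 5 were called, all higher, and 11 had an adjusted p below 0.05 upward and 1 downward, with a median of 0.21 against 0.01 over all genes. The called members were DDIT3, CHAC1, HERPUD1, SESN2 and DDIT4. Olaparib replicate 1 carries much of their size: without it 1 of the 25 was called, DDIT3, and the median was 0.11, while 9 were still higher and 1 lower with an adjusted p below 0.05. Without DMSO replicate 2 it was 7 higher, and without DMSO replicate 3, 3 were called.

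DDIT3, the gene of the stress-induced factor CHOP, had 153, 108 and 112 CPM with olaparib and 66.6, 66.6 and 64.9 CPM with DMSO, an increase of 0.91 on the log2 scale (standard error 0.12, adjusted p = 0.0032). Olaparib libraries were all above DMSO, with replicate 1 apart from the other two. CHAC1, a glutathione-degrading enzyme induced by ATF4 and CHOP, had 16, 11 and 11.3 CPM with olaparib and 7.86, 7.84 and 8.63 CPM with DMSO, an increase of 0.66 (adjusted p = 0.0041; 0.46 without olaparib replicate 1). HERPUD1, which takes part in the degradation of misfolded proteins, had 128, 100.4 and 97.1 CPM with olaparib and 73.1, 69.4 and 71.4 CPM with DMSO, an increase of 0.61 (adjusted p = 0.0012; 0.47 without olaparib replicate 1). Both genes have the highest value in that library, and their groups do not overlap.

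SESN2, a leucine sensor that restrains mTORC1 and is also counted among p53 targets, had 71.8, 55.5 and 55.5 CPM with olaparib and 40.7, 41.3 and 39.1 CPM with DMSO, an increase of 0.60 (adjusted p = 5.0e-04), which was below 1.5-fold without olaparib replicate 1 (0.46) and without DMSO replicate 3 (0.58). DDIT4, another mTORC1 inhibitor, had 77.7, 59.4 and 54.3 CPM with olaparib and 42.5, 42.1 and 43 CPM with DMSO and rose by 0.59 (adjusted p = 0.033). DDIT4 was called in 1 of 6 fits with a library left out, the one without olaparib replicate 3. Its values without olaparib replicates 1 and 2 and without DMSO replicates 1, 2 and 3 were 0.42, 0.63, 0.59, 0.58 and 0.60, and over all alternatives the adjusted p ranged from 9.1e-13 to 0.11. TRIB3, a pseudokinase and ATF4 target, was more abundant, at 194, 171 and 160.4 CPM with olaparib and 124, 121 and 121 CPM with DMSO, and its difference of 0.52 (adjusted p = 2.6e-05) was below 1.5-fold. The chaperone gene HSPA5 differed by 0.32 (adjusted p = 0.019; below 0.05 in 2 of 6 fits with a library left out) and the unfolded protein response factor XBP1 by -0.23 (adjusted p = 0.0048).

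MIR616, a microRNA gene that lies within the DDIT3 locus on chromosome 12, was also called, at 1.51, 2.11 and 2.02 CPM with olaparib and 0.537, 0.484 and 0.674 CPM with DMSO (log2 fold change 1.72, adjusted p = 0.011); it missed the threshold without DMSO replicate 1, DMSO replicate 2 or olaparib replicate 2, at 1.68, 1.63 and 1.62. The olaparib libraries were above the DMSO libraries for it as for DDIT3. Since MIR616 lies within that locus, its reads cannot be told apart from unspliced DDIT3 RNA. It is thus no second result beside DDIT3, and mature microRNA was not measured.

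The letters TGATGNAA, a core shared by ATF4 sites, were searched on both strands in the same windows, also after the gene values were seen. They occurred in 4 of 24 members with a window (16.7%), against 1.82% of all genes tested with a window and 3.12% of those called higher. The 250 bases before the start of CHAC1 (chr15:40953221-40953470, plus strand) and HERPUD1 (chr16:56931892-56932141, plus strand) are given because both genes were called; capitals mark the match, which begins 209 bases before the start in CHAC1 and 176 in HERPUD1.
CHAC1: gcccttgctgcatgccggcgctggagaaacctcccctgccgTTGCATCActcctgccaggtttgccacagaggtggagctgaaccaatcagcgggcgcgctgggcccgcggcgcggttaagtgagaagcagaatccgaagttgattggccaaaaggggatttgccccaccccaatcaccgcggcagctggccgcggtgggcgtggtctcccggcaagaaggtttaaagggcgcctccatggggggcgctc
HERPUD1: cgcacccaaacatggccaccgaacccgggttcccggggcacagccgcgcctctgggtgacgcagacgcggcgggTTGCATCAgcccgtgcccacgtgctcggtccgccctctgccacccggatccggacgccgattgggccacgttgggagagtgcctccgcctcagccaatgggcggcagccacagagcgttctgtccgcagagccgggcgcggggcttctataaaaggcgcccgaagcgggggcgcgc
The letters CCAAT, searched on both strands, were in 75.0% of the windows of this list and in 36.4% of all.

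Immediate early genes, which respond within minutes to growth factors and stress, were raised as well. Of 23 measured, 18 were higher, with 4 called, all higher, and 11 with an adjusted p below 0.05, all higher; the median was 0.22 against 0.01. FOS, DUSP1, FOSB and BTG2 were called. With a library left out, 3 or 4 were called and 8 to 11 had an adjusted p below 0.05, and the median ran from 0.17 without olaparib replicate 1 to 0.34 without DMSO replicate 1.

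FOS, a subunit of AP-1, had 74.2, 87.9 and 68.3 CPM with olaparib and 43.2, 45.9 and 47 CPM with DMSO, an increase of 0.76 (standard error 0.075, adjusted p = 2.2e-05). DUSP1, a phosphatase that switches off MAP kinases, had 86.5, 78.8 and 74.7 CPM with olaparib and 44.8, 52.5 and 47.9 CPM with DMSO, an increase of 0.73 (standard error 0.067, adjusted p = 2.6e-06). In both genes the olaparib libraries are clear of the DMSO libraries, and olaparib replicate 1 does not stand out. FOSB, a second AP-1 subunit, had 8.33, 14 and 12.1 CPM with olaparib and 6.76, 5.64 and 4.42 CPM with DMSO and rose by 1.03 (adjusted p = 0.049). FOSB was called in 1 of 6 fits with a library left out, that without olaparib replicate 1; the 5 others gave 0.85 and 0.99 without olaparib replicates 2 and 3 and 1.19, 1.04 and 0.89 without DMSO replicates 1, 2 and 3. JUNB (0.55), NR4A1 (0.51), the mRNA-decay factor ZFP36 (0.49), ATF3 (0.47) and IER2 (0.32) were under 1.5-fold, each with an adjusted p below 0.05 in 6 of 6 fits with a library left out; JUNB was called in 1 of these.

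For this list, 2 of the 18 windows held the cyclic AMP element TGACGTCA (the same on both strands), 11.1% against 3.04% of all genes tested with a window. DUSP1 is printed as the called member that holds it, from 250 bases before its start (chr5:172771196-172771445, minus strand), with the match in capitals 125 bases before the start.
DUSP1: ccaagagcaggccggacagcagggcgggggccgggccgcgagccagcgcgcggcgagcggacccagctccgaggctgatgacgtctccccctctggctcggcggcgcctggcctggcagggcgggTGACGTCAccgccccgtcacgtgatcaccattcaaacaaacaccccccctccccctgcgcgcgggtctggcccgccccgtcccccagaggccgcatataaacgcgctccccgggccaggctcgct

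Of 27 p53 targets measured, 21 were higher and 6 lower. GDF15, BTG2, GADD45A and SESN2 were called higher; 6 had an adjusted p below 0.05 upward and 2 downward, and the median was 0.13 against 0.01. Without olaparib replicate 1, 2 were called and the median was 0.06. GDF15, a secreted stress cytokine that ATF4 and CHOP also induce, had 49.9, 38.6 and 36.9 CPM with olaparib and 19, 22 and 20.9 CPM with DMSO, an increase of 1.02 (standard error 0.13, adjusted p = 9.1e-04). BTG2, an antiproliferative regulator of mRNA decay, had 54.6, 44 and 39.9 CPM with olaparib and 25.6, 25 and 26.1 CPM with DMSO, an increase of 0.85 (adjusted p = 3.2e-05). Neither gene has overlapping groups. GADD45A, a DNA-damage-inducible regulator, had 14.3, 10.3 and 9.78 CPM with olaparib and 7.06, 7.90 and 6.93 CPM with DMSO (log2 fold change 0.66, adjusted p = 0.0029; 0.47 without olaparib replicate 1).

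CDKN1A, the p53-induced cell cycle inhibitor p21, had 83.4, 71.8 and 69.6 CPM with olaparib and 58.7, 65.1 and 65.1 CPM with DMSO, a difference of 0.25 with an adjusted p of 0.37. The nuclease gene AEN was at 15.2, 18.1 and 19.2 CPM with olaparib and 25.1, 23.9 and 21 CPM with DMSO, lower by the test at -0.42 (adjusted p = 0.0047), and TP53I3 at -0.29 (adjusted p = 0.021), which was below 0.05 in only 1 of 6 fits with a library left out. PMAIP1, which encodes the apoptosis factor NOXA and was chosen after its values were seen, had 8.28, 7.96 and 6.93 CPM with olaparib and 4.83, 4.42 and 4.45 CPM with DMSO, an increase of 0.76 (adjusted p = 8.4e-04).

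Above a mean of 5 CPM over the 6 libraries, the gene with the largest log2 fold change among those called higher was NGFR. NGFR, the low-affinity receptor for neurotrophins, had 13.5, 11.5 and 10.4 CPM with olaparib and 4.94, 4.74 and 4.47 CPM with DMSO, an increase of 1.33 (standard error 0.12, adjusted p = 1.5e-06). The libraries of the groups are far apart for NGFR. Of 16 NF-kB and acute phase genes, 3 were called, all higher, and 4 had an adjusted p below 0.05, all higher, with a median of 0.10 that ran from 0.05 without DMSO replicate 2 to 0.16 without DMSO replicate 3. TNF, an inflammatory cytokine, had 2.26, 2.11 and 2.19 CPM with olaparib and 0.886, 1.39 and 0.863 CPM with DMSO (log2 fold change 1.07, adjusted p = 0.0056), and ICAM1, an adhesion molecule, had 12.6, 11.1 and 10.3 CPM with olaparib and 6.15, 6.58 and 6.52 CPM with DMSO (log2 fold change 0.83, adjusted p = 9.7e-05). Neither overlaps between groups. TNFAIP3, a feedback inhibitor of NF-kB, had 3.51, 3.53 and 3.19 CPM with olaparib and 2.90, 1.77 and 1.81 CPM with DMSO (0.66, adjusted p = 0.042) and was called in 1 of 6 fits with a library left out, that without DMSO replicate 1; the others gave 0.54, 0.54, 0.63, 0.62 and 0.70 without DMSO replicates 2 and 3 and olaparib replicates 1, 2 and 3. Complement C3 differed by 0.51 (adjusted p = 0.0016).

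Some genes of nutrient and growth factor signalling are named here because they were called higher; they were chosen after their values were seen, and no list of such genes was measured. FLCN, the folliculin gene that acts on Rag GTPases, had 39.3, 34 and 35.3 CPM with olaparib and 23.2, 20.7 and 20.2 CPM with DMSO, an increase of 0.76 (adjusted p = 1.4e-05). RRAGD, which encodes one of those Rag GTPases, had 16.7, 14.2 and 13.3 CPM with olaparib and 9.61, 8.09 and 8.06 CPM with DMSO, an increase of 0.78 (adjusted p = 2.2e-04). Both genes were called in 6 of 6 fits with a library left out and have groups apart. IRS2, an adaptor of insulin signalling, changed by 0.62 (adjusted p = 5.0e-04; called in 4 of 6 such fits), and CREBRF, a regulator of metabolic and stress responses, by 0.77 (adjusted p = 4.9e-04; 6 of 6). GAB2, a docking protein below receptor tyrosine kinases, had 114, 105 and 99.2 CPM with olaparib and 69, 68.8 and 68.9 CPM with DMSO (0.62, adjusted p = 1.5e-06; 5 of 6).

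The genes with the largest changes upward were mostly rare transcripts. TPSP2, a tryptase pseudogene, had 2.13, 2.23 and 3.53 CPM with olaparib and 0.429, 0.806 and 0.512 CPM with DMSO (log2 fold change 2.18, adjusted p = 2.0e-04). FBLN2, an extracellular matrix protein, had 2.56, 1.47 and 1.51 CPM with olaparib and 0.671, 0.871 and 0.566 CPM with DMSO (1.41, adjusted p = 0.0040). An identifier with the symbol MATR3, a nuclear matrix protein gene, had 1.87, 2.52 and 2.82 CPM with olaparib and 1.10, 1.03 and 0.755 CPM with DMSO (1.32, adjusted p = 0.0045). Of its exon bases, 42.5% also belong to other genes of that strand, where reads went uncounted. Some symbols belong to more than 1 identifier, so these values may not be the level of MATR3 as a whole. The groups of TPSP2, FBLN2 and MATR3 are apart, which the rule for naming them required, at levels near 1 CPM with DMSO. GDPD3 (1.08), the immunoglobulin gene IGHE (1.03) and CLIP3 (1.0), a microtubule-associated protein gene, were called in 6 of 6 fits with a library left out.

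Other calls were lost in some fits with a library left out, with changes that stayed past 1.5-fold. AZU1 and PRTN3, neighbouring genes of neutrophil granule proteins on chromosome 19, changed by 1.13 and 1.01; AZU1 missed the threshold without DMSO replicate 3 (0.92) and olaparib replicate 2 (1.07), and PRTN3 was called in 1 of 6 fits, that without olaparib replicate 3, with values from 0.77 (without olaparib replicate 2) to 1.18 (without DMSO replicate 2) in the others. LINC01786 (1.29) was called in 1 of 6, that without olaparib replicate 1, with values from 0.98 (without olaparib replicate 3) to 1.53 (without DMSO replicate 1) in the others. N4BP2L1 (0.81) was called in 1 of 6, that without olaparib replicate 3, with values from 0.63 (without olaparib replicate 1) to 0.88 (without DMSO replicate 3) in the others.

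S phase genes, which encode the machinery that copies DNA, were slightly lower. Of 42 measured, 31 were lower; 11 had an adjusted p below 0.05 downward and 2 upward, and the median was -0.11 against 0.01. These differences were all under 1.5-fold. MCM6, a subunit of the replicative helicase, had 52.8, 55.8 and 56.8 CPM with olaparib and 75, 75.5 and 79.5 CPM with DMSO, a difference of -0.48 (standard error 0.058, adjusted p = 4.2e-05). UNG, which removes uracil from DNA, had 72.4, 75.1 and 78.5 CPM with olaparib and 101, 99.3 and 109 CPM with DMSO, a difference of -0.45 (standard error 0.056, adjusted p = 4.8e-05). For both, every olaparib library was below every DMSO library and olaparib replicate 1 was the lowest. The helicase subunits MCM5 (-0.42), MCM2 (-0.27) and MCM4 (-0.26), the helicase component GINS2 (-0.33), the sliding clamp PCNA (-0.24), the flap nuclease FEN1 (-0.24) and the ribonucleotide reductase subunit RRM2 (-0.25) had an adjusted p below 0.05 in 6 of 6 fits with a library left out. With 1 library left out, from 9 to 11 members had an adjusted p below 0.05 downward; without DMSO replicate 3 the median was -0.07 and 3 passed upward.

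Further motifs were searched on both strands in the same windows. Of the windows of genes called higher, called lower and tested, CCAAT was in 42.2%, 28.3% and 36.4%, GCGTG in 53.1%, 32.6% and 48.7%, TGACNNNGC in 15.6%, 17.4% and 15.1%, and TTTGAA in 6.25%, 10.9% and 10.4%. AP-1 letters, TGACTCA, which can overlap TGACNNNGC, were in 4.69%, 6.52% and 3.10%, and the cyclic AMP element in 1.56%, 2.17% and 3.04%. GAAACNGAA was in 1.71% of all windows and TCACCCCAC in 0.381%, with at most 1 window each among called genes. In S phase genes the E2F letters TTTCGCGC and TTTGGCGC were in 12.9% and 19.4% of 31 windows, against 0.915% and 0.999% of all, and CCAAT in 71.0%.

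**Figure D3:**
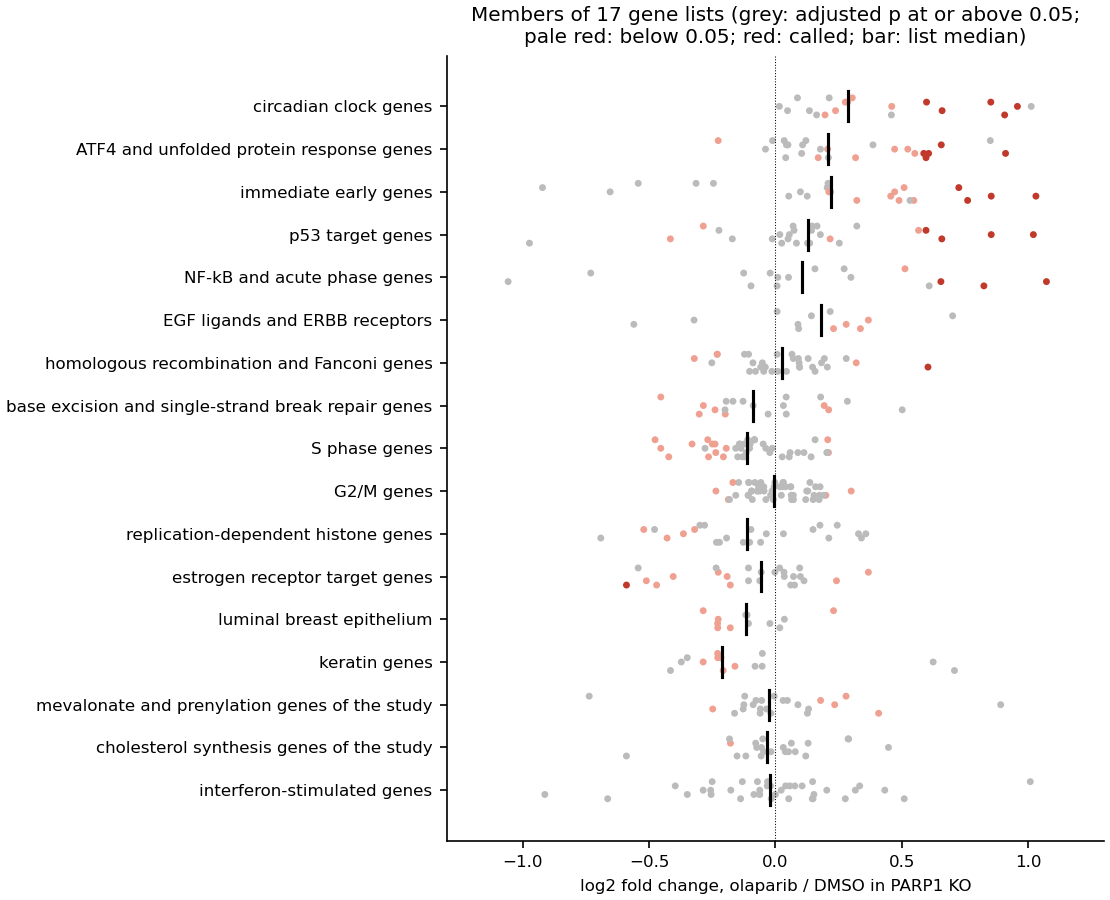
Log2 fold change, olaparib against DMSO in PARP1 KO cells (x), of the members of 17 gene lists (y); grey points have an adjusted p of at least 0.05, pale red points less, red points were called, and black bars are list medians. Clock, ATF4 and immediate early genes lie to the right, S phase, base excision and keratin genes slightly to the left; 1 member with an adjusted p above 0.05 lies beyond the axis.

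In the plot of lists, called members sit in the upper lists, and most of the lists below them straddle 0. For genes of mitosis the olaparib libraries differed from each other: replicates 1, 2 and 3 had medians of 0.11, -0.02 and -0.10 against the DMSO mean over 54 G2/M genes. In the test 26 were higher and 28 lower, 2 and 3 with an adjusted p below 0.05, around a median of -0.00, but 5 were lower by adjusted p without olaparib replicate 1 and 6 higher without olaparib replicate 3. Of 24 replication-dependent histone genes, 16 were lower, 4 with an adjusted p below 0.05 (1 to 5 with a library left out), and the median was -0.11. By the paper's methods the RNA was poly(A)-enriched, so histone transcripts without a poly(A) tail are not covered.

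Of 19 base excision and single-strand break repair genes, the pathway that PARP1 serves, 11 were lower, 5 with an adjusted p below 0.05 downward and 2 upward, median -0.09. With a library left out it was 3 or 4 downward and at most 1 upward, and the median went to -0.02 without DMSO replicate 3. Beside UNG and FEN1, the thymine DNA glycosylase TDG was lower by the test (-0.30, adjusted p = 0.0020) and the ligase LIG3, which seals single-strand breaks, higher (0.21, adjusted p = 0.016; below 0.05 in 3 of 6 fits with a library left out). Of 32 homologous recombination and Fanconi genes, RAD52 was called, and the median was 0.03 (0.00 to 0.05 with a library left out). With an adjusted p below 0.05, 2 of the 32 were higher and 2 lower, against 4.42% and 3.87% of all genes tested. Counts this small do not set the list apart from all genes. RAD52, which anneals DNA strands, had 16.8, 15.9 and 15.4 CPM with olaparib and 10.0, 11.6 and 10.1 CPM with DMSO, an increase of 0.60 (standard error 0.094, adjusted p = 4.3e-04), with the groups apart; its fold fell just below 1.5 without olaparib replicate 1 (0.57), DMSO replicate 1 (0.57) or DMSO replicate 3 (0.58). RAD54L, a motor of strand exchange, differed by 0.32 (adjusted p = 0.0046), and on the lower side were RAD51D (-0.32, adjusted p = 0.046) and RBBP8, which starts resection of broken ends (-0.23, adjusted p = 0.0063), with an adjusted p below 0.05 in 1 and 5 of 6 fits with a library left out.

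Other genes of the PARP family moved little. Of 22 measured members of the family and of the enzymes that remove ADP-ribose, 2 were higher and 2 lower with an adjusted p below 0.05, and the median was 0.02. PARP2, the close relative of PARP1, had 56.8, 51.2 and 50.8 CPM with olaparib and 47.2, 44.4 and 50.8 CPM with DMSO, a difference of 0.16 (adjusted p = 0.14). The tankyrase genes TNKS (79.1, 72 and 63 CPM with olaparib and 53.8, 54 and 51.7 CPM with DMSO; 0.43, adjusted p = 7.3e-04) and TNKS2 (0.24, adjusted p = 0.014) were higher, and HPF1, the partner that directs ADP-ribose to serine (-0.27, adjusted p = 0.034), and TIPARP (-0.22, adjusted p = 0.031) were lower. TNKS kept an adjusted p below 0.05 in 6 of 6 fits with a library left out, the other 3 in at most 2.

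Estrogen receptor targets were split in direction. Of 25, 14 were lower and 11 higher, 7 with an adjusted p below 0.05 downward and 2 upward, and the median was -0.06. With a library left out, 4 to 6 passed downward, and the median was -0.01 without olaparib replicate 1 and -0.11 without olaparib replicate 2. CXCL12, a chemokine induced by estrogen, had 93.2, 113 and 114 CPM with olaparib and 152, 156 and 148 CPM with DMSO, a difference of -0.51 (standard error 0.066, adjusted p = 1.5e-04). CCND1, which encodes cyclin D1, had 279, 320.3 and 346 CPM with olaparib and 436, 415 and 399 CPM with DMSO, a difference of -0.40 (adjusted p = 9.1e-04). Each olaparib library is below each DMSO library in both genes, with replicate 1 lowest. ESR1 itself differed by -0.18 (adjusted p = 0.045; adjusted p below 0.05 in 1 of 6 fits with a library left out). AREG, an EGF-like ligand and estrogen target, went up, with 71.4, 72.3 and 64.5 CPM with olaparib and 53.5, 52.2 and 55.7 CPM with DMSO (0.37, adjusted p = 4.4e-04).

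The apoptosis inhibitor BCL2 was the one target called, at 1.90, 1.57 and 1.85 CPM with olaparib and 2.76, 2.77 and 2.45 CPM with DMSO (-0.59, adjusted p = 0.045, over the alternatives from 0.031 to 0.17). That call was lost in each of the 6 fits with a library left out, at -0.65, -0.52 and -0.62 without olaparib replicates 1, 2 and 3 and -0.56, -0.56 and -0.64 without DMSO replicates 1, 2 and 3. Of 14 keratin genes 12 were lower, 6 with an adjusted p below 0.05 but only 3 to 5 with a library left out, with a median of -0.21. Among the 12 luminal markers the median was -0.11. The epithelial keratins KRT8 (3255, 3446 and 3659 CPM with olaparib and 4337, 4134 and 4161 CPM with DMSO; -0.29, adjusted p = 0.0014), KRT18 (-0.23) and KRT19 (-0.23) were lower in 6 of 6 such fits by adjusted p. The summed luminal markers moved with these genes, as given above, and their part in the other results was not tested.

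**Figure D4:**
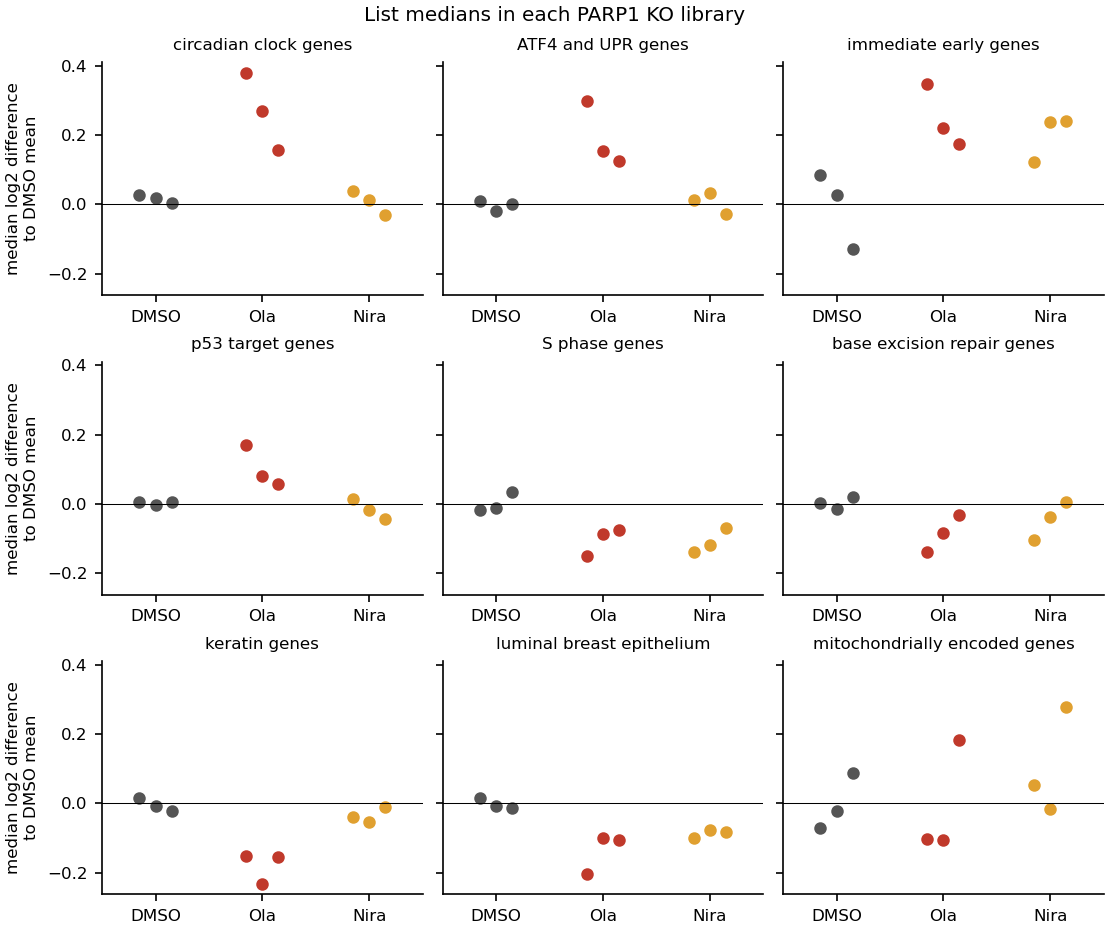
Median over the members of 9 gene lists of the log2 difference between a PARP1 KO library and the DMSO mean (y), for each DMSO, olaparib and niraparib library (points). Olaparib replicate 1 is the highest olaparib library for clock, ATF4, immediate early and p53 genes.

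The list medians by library place olaparib replicates 1, 2 and 3 at 0.38, 0.27 and 0.16 for clock genes, at 0.30, 0.16 and 0.13 for ATF4 genes and at 0.35, 0.22 and 0.18 for immediate early genes. All 3 replicates lie above the 3 DMSO libraries in these lists, with replicate 1 the highest. For S phase genes they lie at -0.15, -0.09 and -0.07 and for keratins at -0.15, -0.23 and -0.15, below the DMSO libraries. Mitochondrially encoded genes do not follow the treatment, at -0.10, -0.11 and 0.18.

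The sterol lists that the study drew up moved little. Of its 24 mevalonate and prenylation genes, 4 were higher and 1 lower with an adjusted p below 0.05, with a median of -0.03 (-0.08 without olaparib replicate 1, 0.01 without DMSO replicate 3); of its 22 cholesterol synthesis genes 10 were higher and 12 lower, with a median of -0.03; of its 14 LXR genes 10 were higher, with a median of 0.06. SQLE (0.23, adjusted p = 0.010), RABGGTB (0.28, adjusted p = 0.013) and HMGCS1 (0.18, adjusted p = 0.045) were among those higher, and ACAT2 (-0.25, adjusted p = 0.0083) and the sterol reductase gene TM7SF2 (-0.18, adjusted p = 0.032) lower. HMGCS1 and TM7SF2 passed in 1 of 6 fits with a library left out, SQLE and RABGGTB in 4 each and ACAT2 in 5. Among 12 further SREBP targets the median was 0.13 (0.09 without olaparib replicate 2).

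The genes called lower include 31 long noncoding RNAs, among them antisense and divergent transcripts. Among genes with a symbol and a mean that reached 1 CPM, the largest decreases were those of LINC02701 (-1.25, adjusted p = 0.0051), ZBTB11-AS1 (-1.01, adjusted p = 0.0023), CYP26B1, YEATS2-AS1 (-0.99, adjusted p = 0.010) and FILNC1 (-0.98, adjusted p = 4.9e-04). The 4 noncoding ones were called in 6 of 6 fits with a library left out, as was HOXC13-AS (-0.84). YEATS2-AS1 had 2.56, 4.58 and 4.03 CPM with olaparib and 8.40, 7.03 and 6.68 CPM with DMSO, with the groups apart as the naming rule required. CYP26B1, which degrades retinoic acid, had 1.90, 1.98 and 2.42 CPM with olaparib and 4.48, 5.06 and 3.02 CPM with DMSO (-1.0, adjusted p = 0.016) and lost its call without DMSO replicate 1 (-0.94), DMSO replicate 2 (-0.84), olaparib replicate 1 (-0.93) or olaparib replicate 2 (-0.97).

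Protein-coding genes were 36 of the 74 called lower. ADRA2A, an adrenergic receptor, had 3.85, 4.36 and 5.51 CPM with olaparib and 10.1, 8.67 and 6.87 CPM with DMSO, a decrease of -0.91 (adjusted p = 0.0016). MET, the receptor for hepatocyte growth factor, had 3.33, 3.40 and 2.08 CPM with olaparib and 5.34, 5.58 and 5.07 CPM with DMSO, a decrease of -0.84 (adjusted p = 0.0026). Their groups do not overlap, which the rule for naming them required. CHAC2, a relative of CHAC1 that also acts on glutathione, had 1.69, 1.93 and 1.55 CPM with olaparib and 2.76, 2.97 and 3.21 CPM with DMSO (-0.78, adjusted p = 0.0083), so the 2 CHAC genes went opposite ways. The next 3 were chosen after their values were seen. NCOA5, a coregulator of the estrogen receptor, had 17.7, 22.3 and 23.6 CPM with olaparib and 35.6, 35.9 and 33.4 CPM with DMSO (-0.72, adjusted p = 9.7e-05). CCL28, an epithelial chemokine, had 21.6, 26.1 and 22.7 CPM with olaparib and 34.4, 37.8 and 37.9 CPM with DMSO (-0.64, adjusted p = 3.2e-05). SMAD7, the feedback inhibitor of TGF-beta signalling, changed by -0.62 (adjusted p = 0.0027; called in 3 of 6 fits with a library left out).

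Several other decreases lost their call in fits with a library left out. IRF2-DT (-0.82) and PPP1R12A-AS1 (-0.82) lost their calls in each of the 6 fits with a library left out, with adjusted p up to 0.20 and 0.16; their log2 fold changes stayed past 1.5-fold there, from -0.66 to -1.04 and from -0.72 to -0.93, and over all alternatives the adjusted p ranged from 0.037 to 0.20 and from 0.039 to 0.16. ARHGEF17-AS1 (-0.80) and BCHE (-0.85) were called in 1 of 6, without DMSO replicate 3 and without olaparib replicate 2 respectively, CHFR-DT (-0.90) in 2, without DMSO replicate 1 or olaparib replicate 3, and HTR7P1 (-0.88) in 3, the calls being lost without DMSO replicates 2 and 3 and olaparib replicate 1. Of these, ARHGEF17-AS1 moved most, to -0.54 without DMSO replicate 1. DKK1, a secreted Wnt inhibitor with less than 1 CPM on average, had 0.231, 0.220 and 0.101 CPM with olaparib and 0.322, 0.967 and 0.755 CPM with DMSO (-1.81, adjusted p = 0.016) and was called in 2 of 6, without DMSO replicate 1 or olaparib replicate 1.

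The same drug in WT cells, compared with its own DMSO libraries, called more genes: 907 of 22446 tested (4.04%), 462 higher (2.06%) and 445 lower (1.98%). No library is shared between the genotypes. Of the genes called higher in PARP1 KO, 47 were also called higher in WT, 45.6% of the PARP1 KO genes and 10.2% of the WT genes; of those called lower, 26 were also called lower in WT, 35.1% and 5.84%. Among genes called in PARP1 KO, 82 of 103 and 62 of 74 had the same direction in WT, with medians of 0.76 in PARP1 KO and 0.60 in WT for those higher and of -0.81 and -0.54 for those lower. These genes were picked for their size in PARP1 KO and not in WT. DUSP1 (0.73 and 0.75), HERPUD1 (0.61 and 0.59) and CXCL12 (-0.51 and -0.56) are examples with similar log2 fold changes in PARP1 KO and WT; the interaction had an adjusted p of 0.97, 0.96 and 0.80 for them. By list, WT cells had 6 of 19 clock genes called, all higher, with a median of 0.48 (0.29 in PARP1 KO), 9 of 25 ATF4 genes, all higher, with 0.28 (0.21), and 8 of 23 immediate early genes higher and 1 lower, with 0.57 (0.22). The median interaction was -0.09, -0.07 and -0.13 in these lists.

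**Figure D5:**
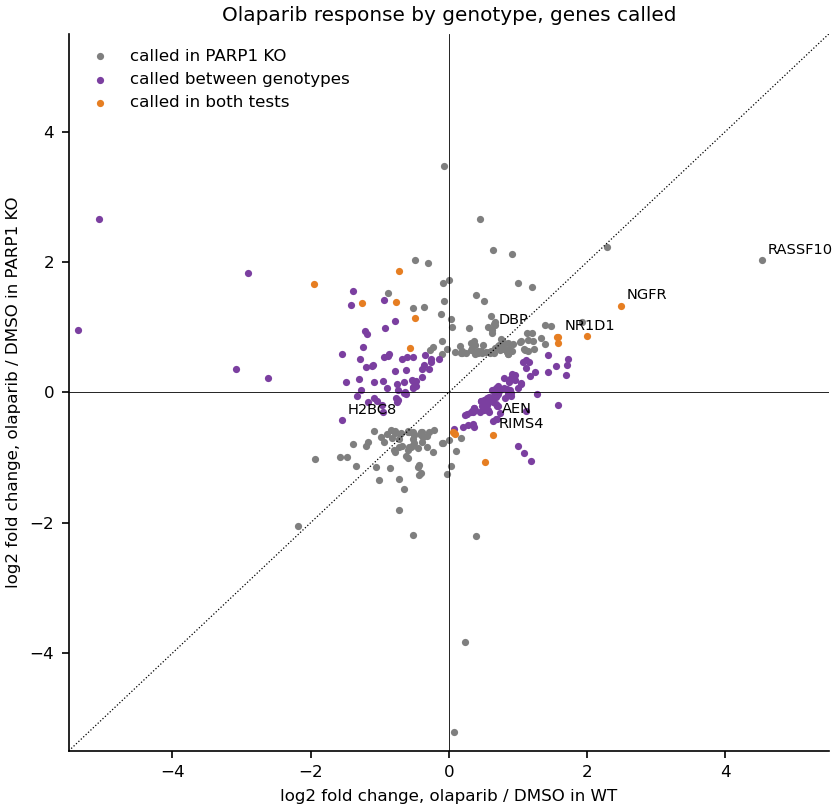
Log2 fold change of olaparib against DMSO in WT (x) and in PARP1 KO (y) for 323 genes: 161 called in PARP1 KO only (grey), 146 called only between the genotypes (purple) and 16 called in both tests (orange). Purple points lie mostly where WT changed and PARP1 KO changed little.

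The test of the difference between genotypes, the interaction, called 162 of 24675 genes (0.657%), 68 with a more positive change in PARP1 KO than in WT (0.276%) and 94 with a more negative one (0.381%). By adjusted p alone, 225 of the 24675 were higher in this test and 334 lower, the background for the lists below. In 56 of the 94 the gene was called higher in WT and not called in PARP1 KO, and in 40 of the 68 it was called lower in WT and not called in PARP1 KO. The plot by genotype shows this as clouds along the WT axis. Of the genes called in PARP1 KO, 11 of the 103 and 5 of the 74 differed by the interaction; for 6 and 5 of these the change was larger in PARP1 KO. Leaving out 1 library gave from 86 interaction genes, without WT DMSO replicate 1, to 273, without PARP1 KO olaparib replicate 1.

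WT DMSO replicate 1 stands apart from its group: the chi-square per gene is 17.3 and 15.9 between it and replicates 2 and 3, and 3.14 between those. The interaction medians of lists given next were not recomputed without it. Among genes named next, AEN, DTL, EXO1 and H2BC8 were called in 12 of 12 interaction fits with a library left out, CDKN1A in 11 and CDC6 in 7.

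For 27 p53 targets the median interaction was -0.29 against 0.01 over all genes, 3 were called, all lower, and 6 were lower with an adjusted p below 0.05, against 1 higher. AEN is called in this test (-1.09, adjusted p = 1.9e-07): in WT it had 28.6, 31.1 and 27.6 CPM with olaparib and 18.2, 19.4 and 17 CPM with DMSO, a change of 0.68, against -0.42 in PARP1 KO. CDKN1A differed by -0.92 (adjusted p = 0.018), from 1.18 in WT, where it had 140.0, 136 and 136 CPM with olaparib and 51.1, 65.8 and 65.1 CPM with DMSO. In both genes every WT olaparib library is above every WT DMSO library; in PARP1 KO this is so for CDKN1A, while AEN is below DMSO in every olaparib library. BTG2, higher in both genotypes, rose less in PARP1 KO (interaction -0.71, adjusted p = 2.8e-04), as did NR1D1 (-0.72, adjusted p = 0.015), NGFR (-1.15, adjusted p = 1.7e-06) and PMAIP1 (-0.81, adjusted p = 0.0042).

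For S phase genes the median interaction was -0.33, 3 were called, all lower, and 23 had an adjusted p below 0.05, all lower. DTL (-0.90, adjusted p = 1.1e-10), EXO1 (-0.72, adjusted p = 1.9e-05) and CDC6 (-0.59, adjusted p = 3.1e-05) were called, with 1.04, 0.93 and 0.46 in WT and 0.14, 0.21 and -0.13 in PARP1 KO. Replication-dependent histones, as far as poly(A)-enriched RNA covers them, went the other way, with a median interaction of 0.48 and 4 called higher. H2BC8 had a log2 fold change of -1.55 in WT and -0.43 in PARP1 KO (interaction 1.13, adjusted p = 2.9e-05), so the change was smaller in the PARP1 KO line, where its adjusted p was 0.0021. G2/M genes had a median interaction of 0.22, with 13 members higher and 1 lower by adjusted p. AREG rose less in PARP1 KO too (interaction -0.75, adjusted p = 1.7e-07; 1.12 in WT).

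By the same rule of size, WASH2P, FERMT3, CAPN10-DT, CEACAM22P and LINC02656 had the largest interactions upward and CSPG4, RASGRP1, RIMS4, ADORA1 and ARAP3 the largest downward. FERMT3, an integrin activator of blood cells, went from -1.09 in WT to 0.42 in PARP1 KO (interaction 1.52, adjusted p = 0.019), and CSPG4, a cell surface proteoglycan, from 1.70 to 0.26 (interaction -1.43, adjusted p = 2.4e-04). RIMS4, a synaptic vesicle protein gene, went down in PARP1 KO (3.03, 1.96 and 2.29 CPM with olaparib and 3.78, 4.61 and 3.07 CPM with DMSO; -0.65, adjusted p = 0.037) and had 4.58, 5.25 and 5.29 CPM with olaparib and 1.92, 4.18 and 3.40 CPM with DMSO in WT (0.63). Its call in PARP1 KO was lost without DMSO replicates 1 and 2 (-0.66 and -0.50) and olaparib replicates 2 and 3 (-0.52 and -0.61). WASH2P, a pseudogene near 1 CPM, had 1.05, 1.59 and 1.78 CPM with olaparib and 0.778, 0.613 and 0.593 CPM with DMSO and was called in 2 of 6 fits in PARP1 KO, with 1.10, 1.07, 1.07 and 0.99 where the call was lost, without DMSO replicates 2 and 3 and olaparib replicates 2 and 3.

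Olaparib and niraparib were set against each other in the same cells, each at 10 uM for 48 h. This comparison uses the same 3 olaparib libraries as that with DMSO, so values are set side by side only. It called 236 of 22037 genes (1.07%), 99 higher with olaparib (0.449%) and 137 lower (0.622%), and from 144 without niraparib replicate 2 to 281 without olaparib replicate 3. By adjusted p alone, 1263 of the 22037 were higher with olaparib and 940 lower. Of 19 clock genes 15 were higher with olaparib and 4 lower; 4 were called, all higher, 11 had an adjusted p below 0.05, all higher, and the median was 0.27. For ATF4 genes 4 of 25 were called, all higher, 11 had an adjusted p below 0.05, all higher, and the median was 0.22. Of 23 immediate early genes 1 was called, higher, 4 had an adjusted p below 0.05, all higher, and the median was 0.05. S phase genes had 7 higher and 7 lower by adjusted p, with a median of -0.02. Set against the DMSO mean, niraparib replicates 1, 2 and 3 had S phase medians of -0.14, -0.12 and -0.07. DBP had 12.1, 12.2 and 11.8 CPM with niraparib (olaparib against niraparib 1.12, adjusted p = 3.4e-06), NR1D1 17.2, 17.1 and 17.2 CPM (0.89, adjusted p = 6.1e-05) and DDIT3 65.7, 62.3 and 64.7 CPM (0.95, adjusted p = 0.0020). All 3 olaparib libraries exceed all 3 niraparib libraries in these genes.

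For FOS and DUSP1, no difference between the drugs passed the test. FOS had 86.1, 85 and 78.8 CPM with niraparib (olaparib against niraparib -0.12, standard error 0.074, adjusted p = 0.41) and DUSP1 76.4, 85.9 and 79.7 CPM (-0.01, standard error 0.066, adjusted p = 0.95). Niraparib and olaparib libraries overlap in both and lie above DMSO. GDF15 (24.1, 23.2 and 18.8 CPM with niraparib; 0.93, adjusted p = 0.0011), FLCN (0.92, adjusted p = 1.1e-06) and NGFR (6.83, 7.50 and 6.99 CPM; 0.74, adjusted p = 2.9e-04) were called higher with olaparib, and NCOA5 (-0.72, adjusted p = 8.8e-05) lower. The largest differences named by size were TPSP2 (1.34), FBLN2 (1.70), CLIP3 (1.17), RPS19P7 (1.22) and N4BP2L1 (1.19) upward and LINC02701 (-1.10), CYP26B1 (-1.07), LINC00235 (-1.09), TMEM167B-DT (-1.01) and SDCBP2-AS1 (-1.0) downward. CHAC1 with niraparib had 9.90, 10.2 and 8.23 CPM, overlapping DMSO, and its difference between the drugs was 0.44 (adjusted p = 0.036).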

How the data were processed

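RNA libraries of T47D cells labelled PARP1 KO or WT were used as counts per gene deposited by the authors, who trimmed, aligned and counted reads by strand with featureCounts 2.0.0 on Ensembl release 96. Reads over exons of several genes on 1 strand went uncounted. Deposited names say deduplicated, while the methods speak only of identified and quantified duplicates; labels and paper also differ on RNA input, medium and kit. Totals were 29760855 to 40873768 in the 6 libraries described. Of 58884 identifiers, 58472 had an entry in the symbol table and 41967 a symbol.

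A gene entered the test when its counts, summed over all 9 libraries of its genotype (18 for the interaction), exceeded 10. The test was that of edgeR 4.0.16, with limma 3.58.1 and R 4.3.3 (TMM, robust quasi-likelihood F test, Benjamini-Hochberg over all genes tested), in 1 model of 3 groups or of 6 for the interaction; all adjusted p-values are from it unless named. The biological coefficient of variation was 7.42% in PARP1 KO. Standard errors are the log2 fold change over the root of F. With 3 libraries against 3, a 2-sided exact permutation test cannot go below 0.1. The scripts were tested on simulated data. Tables and plots used Python 3.11.15, pandas 2.3.3, numpy 2.4.6 and matplotlib 3.10.9.

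Named genes are PARP1; up to 15 called genes per direction with the largest change, a symbol, at least 1 CPM on average and no overlap of groups (30 of 121 that met this); called members of the gene lists, and for the study's lists members with an adjusted p under 0.05; up to 5 per direction in the interaction (10 of 129) and between drugs (10 of 170); and cell type markers. Other genes named are members of the same lists or, where the report says so, were chosen after their values were seen; some members are not reported here. Members and lists were chosen with earlier results of these data known. Promoters are from RefSeq (GRCh38.p14), 1 per gene from 250 bases before its most upstream start to 50 after. Alternatives were DESeq2 1.42.0, RLE size factors, filterByExpr, no filter, all 18 or only the compared libraries in a fit, the replicate number as a block, other thresholds, and each library left out.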

Additional observations from a re-analysis of the deposited data

Results flagged for a closer look

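A difference between groups was tested by the interaction of genotype and olaparib. It covered each gene named by the rules given above and called in PARP1 KO cells, and 5 were called in the interaction. Genes chosen after their values were seen were left out of this count. Among them, PMAIP1 also rose less in PARP1 KO by this test, as given above. BTG2 rose less in PARP1 KO than in WT, with a difference of -0.71 on the log2 scale (adjusted p = 2.8e-04, edgeR; 3.1e-12 to 0.0047 over the alternatives). NGFR also rose less, by -1.15 (adjusted p = 1.7e-06; 9.3e-13 to 3.0e-05). For NR1D1 the difference was -0.72 (adjusted p = 0.015; 2.5e-10 to 0.045). RIMS4 was lower with olaparib in PARP1 KO and higher in WT, a difference of -1.28 (adjusted p = 0.017; 2.7e-06 to 0.061). WASH2P, near 1 CPM, was higher in PARP1 KO and not called in WT (-0.49, adjusted p = 0.16), a difference of 1.64 (adjusted p = 0.011; 0.0033 to 0.041). Groups of 3 libraries were not tested for single samples far from the rest.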

How the results depend on the processing

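Of the 177 genes called in PARP1 KO cells, all 130 to which DESeq2 gave an adjusted p were also called by it (153 in all), and it gave none to the other 47. RLE size factors gave 177 called genes (176 shared), filterByExpr 180 (171), no filter 254 (170), all 18 libraries 189 (162), only the groups compared 194 (160). With the replicate block it was 148 (143 shared). The replicate numbers do not pair the samples: after group means were removed, olaparib and DMSO libraries of the same number correlated at -0.41, 0.05 and -0.38 over 13526 genes, and the closest pair was olaparib replicate 1 with DMSO replicate 3, at 0.45. By adjusted p alone there were 1827 genes, above 2-fold 55 and above 1.5 on the log2 scale 21. With 1 library left out the number was 100 to 195; with DMSO replicate 2 out it was 100, of which 83 shared. The WT counts for the same thresholds were 4270, 363 and 153, and 652 to 889 with 1 library left out. The interaction called 559, 59 and 30, with no filter 346, with the block 128 and with 1 library left out 86 to 273. Olaparib against niraparib called 2203, 56 and 24, with the block 206 and with 1 library left out 144 to 281. Thresholds change these numbers by construction; for the other settings the cause was not tested. Of the 51 named genes called, 25 were called in every fit that gave them an adjusted p, and the direction was the same in all fits for all 51; 26 lost the call with at least 1 library left out, from 11 without olaparib replicate 3 to 19 without olaparib replicate 1, 8 with the block, 4 with all 18 libraries, 3 with only the groups compared, 2 with no filter and 1 with filterByExpr, and 9 had no adjusted p in DESeq2. Of 34 list medians, 21 moved by over 1 SD and 12 changed sign in at least 1 fit; those of clock, ATF4, immediate early, S phase and keratin genes kept their sign.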

Other observations

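In PARP1 KO cells, genes of hypoxia and glycolysis split in direction with olaparib: of 18 tested, 9 were higher and 9 lower; 3 were higher and 3 lower at an adjusted p under 0.05 (edgeR), none of them past 1.5-fold in that fit, although KDM3A was called in 4 of the 6 fits with a library left out and VEGFA in 1, and the median was -0.01. The histone demethylase KDM3A had a mean of 52.3 CPM with olaparib and 35 with DMSO, without overlap, with a log2 change of 0.58 (adjusted p = 2.6e-05; under 0.05 in all 6 such fits). The angiogenic factor VEGFA (0.51, adjusted p = 0.023) and NDRG1 (0.44, adjusted p = 0.039) were under 0.05 in only 2 and 1 such fits. The 3 lower ones were PFKFB3 at -0.34 (adjusted p = 0.0046), enolase ENO1 at -0.21 (adjusted p = 0.0087) and lactate dehydrogenase LDHA at -0.18 (adjusted p = 0.021; under 0.05 in 3 such fits). In WT cells the same genes had 0.57, 0.56, 0.42, -0.61, -0.22 and -0.32, in this order. Oxygen and metabolites were not measured.

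Of 12 heat shock genes 8 were lower and 4 higher, and 3 passed an adjusted p of 0.05, all lower: HSPH1 at -0.31 (adjusted p = 0.0022), the mitochondrial cochaperonin HSPE1 at -0.30 (adjusted p = 0.0054) and HSPA8 at -0.29 (adjusted p = 0.0011), each under 0.05 with any 1 library left out. The list median was -0.06 (-0.11 without olaparib replicate 1). Of 28 matrix and adhesion genes 22 were higher, 3 of them by adjusted p (at most 2 with a library left out), and 1, THBS1, was lower by it (-0.39, adjusted p = 0.0064). Of 14 YAP targets 8 were lower, 2 of them by adjusted p, and 1, CCN1, was higher by it (0.25, adjusted p = 0.0015). Of 16 NRF2 targets the ferritin light chain gene FTL passed (0.32, adjusted p = 0.013; under 0.05 in 4 of 6 fits with a library left out), with a median of 0.13 (0.06 without olaparib replicate 1).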
